A study of Mus musculus with 6 samples.

Results

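The type 17 programme genes described here are 9 protein-coding genes, Ccr6, Il23r, Il17re, Il1r1, Blk, Sdc1, Serpinb1a, Tmem176a and Tmem176b, picked by symbol from the 27998 genes listed for each library. The cells are iNKT (invariant natural killer T) cells, whose receptor binds lipids on CD1d, taken from the liver, spleen and lymph node of wild-type C57BL/6 mice aged 5 weeks. No treatment was given, and all 3 organs were treated alike: cells bearing CD8 or B220 were depleted and the rest sorted on TCRβ and a CD1d tetramer. Each organ had 2 droplet libraries, read at the 3′ end, in which every captured molecule carries a unique molecular identifier (UMI).

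A part of the iNKT lineage, called iNKT17, makes IL-17. Such cells are known to be frequent in lymph nodes and scarce in liver, where iNKT1 cells, which depend on T-bet, prevail. The 9 genes belong to the same programme by different routes. Ccr6 is the receptor of the chemokine CCL20. Il23r, Il1r1 and Il17re are receptor chains for IL-23, IL-1 and IL-17C, and each signals with a partner chain, Il12rb1, Il1rap and Il17ra respectively. Blk is a Src family kinase that also acts in B cells. Sdc1 (CD138) is a heparan sulphate proteoglycan that also marks plasma cells. Serpinb1a inhibits serine proteases of granules. Tmem176a and Tmem176b are related membrane proteins known from IL-17-making lymphocytes and from dendritic cells.

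After the study's filters on genes and mitochondrial reads, 2638 to 2861 cells remained in a library. Median depth was 3592 and 2880 UMIs per liver cell, 1724 and 1554 per spleen cell, 1730.5 and 1470 per lymph node cell, so a gene of equal level is seen in more liver cells. Levels are therefore given as CPM, the usual scaling of summed UMIs to a common library total, and shares of cells also after each cell was thinned to 1000 UMIs. Markers of T cells were found at 4439 to 5697 CPM in all libraries. Markers of other cells were low: B cell genes summed to 2.52 to 17.2 CPM and plasma cell genes to 0.71 to 3.63 CPM. Myeloid genes summed to 3.07 to 22.6 CPM in 5 libraries and to 115 CPM in lymph node replicate 2, where 3 cells held 2 or more of them. Cd3e, Cd3g, Cd3d and Zbtb16 were the T and iNKT genes measured, and receptor constant genes and γδ T genes were not analysed here. Both lymph node libraries had 0 UMIs of Xist and 1362 and 1579 UMIs of Y-linked genes, whereas the liver and spleen libraries had 5401 to 10404 UMIs of Xist and 0 of Y-linked genes. Every comparison with lymph node therefore also compares these 2 kinds of library, and the 2 cannot be told apart.

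The 9 genes lie on 6 chromosomes of GRCm38 (mm10) in the GENCODE vM21 annotation. Ccr6 (ENSMUSG00000040899) spans chr17:8236043-8257141 on the plus strand and Il23r (ENSMUSG00000049093) chr6:67422932-67491855 on the minus strand. Il17re (ENSMUSG00000043088) spans chr6:113458484-113470758 on the plus strand and Il1r1 (ENSMUSG00000026072) chr1:40225080-40317257 on the plus strand. Blk (ENSMUSG00000014453) lies at chr14:63372836-63417037 on the minus strand, Sdc1 (ENSMUSG00000020592) at chr12:8771323-8793715 on the plus strand and Serpinb1a (ENSMUSG00000044734) at chr13:32842092-32851185 on the minus strand. Tmem176a (ENSMUSG00000023367, plus strand, chr6:48840919-48847071) and Tmem176b (ENSMUSG00000029810, minus strand, chr6:48833818-48841496) are neighbours that run away from each other, and their 5′ ends overlap by 578 bases. Il1r1 overlaps Gm38070, an unconfirmed transcript on the same strand, by 6480 bases, so reads from there could be split or lost. Reads from the bases shared by the Tmem176 pair are told apart by strand alone, although 3′ libraries draw mainly from the opposite ends of the pair. Serpinb1b and Serpinb1c, close paralogs of Serpinb1a, had 3 and 0 UMIs over the 6 libraries, and a count of 0 allows up to 0.426 to 0.839 CPM in a library.

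RefSeq upstream windows on GRCm38.p6 were held for 7 of the 9 genes. The 250 bases before each start were searched on both strands for AGGTCA, a half-site that nuclear receptors bind, and for the longer TAGGTCA, which contains it. The 7 genes have 12 windows, of which 2 held both motifs, 1 of the 2 windows of Ccr6 and the window of Il23r, and the others held neither. Among all 32851 windows, 14.0% held AGGTCA and 2.23% held TAGGTCA, so for AGGTCA these genes stood near the share of all windows. A window each of Ccr6, Il23r and Il1r1 is shown because these lie outside annotated exons of the genes and differ in this motif, with AGGTCA on either strand in capitals. They are chr17:8235793-8236042 on the plus strand, chr6:67491856-67492105 on the minus strand and chr1:40224830-40225079 on the plus strand, each read 5′ to 3′ towards the start.
Ccr6: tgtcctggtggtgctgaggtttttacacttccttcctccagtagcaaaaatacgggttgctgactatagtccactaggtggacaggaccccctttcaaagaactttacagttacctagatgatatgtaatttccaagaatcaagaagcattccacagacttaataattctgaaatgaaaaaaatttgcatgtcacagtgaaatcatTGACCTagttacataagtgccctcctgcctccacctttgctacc
Il23r: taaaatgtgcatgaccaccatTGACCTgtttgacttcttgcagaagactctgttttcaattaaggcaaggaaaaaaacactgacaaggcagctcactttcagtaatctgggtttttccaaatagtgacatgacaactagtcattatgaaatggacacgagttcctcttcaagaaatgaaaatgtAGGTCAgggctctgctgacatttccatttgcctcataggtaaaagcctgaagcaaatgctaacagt
Il1r1: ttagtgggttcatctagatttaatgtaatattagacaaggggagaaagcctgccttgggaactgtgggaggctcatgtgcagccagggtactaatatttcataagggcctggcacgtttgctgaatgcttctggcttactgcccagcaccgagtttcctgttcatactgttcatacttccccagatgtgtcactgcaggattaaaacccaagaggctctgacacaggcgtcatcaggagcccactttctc
The match before Ccr6 begins 44 bases ahead of the start, and those before Il23r begin 229 and 66 bases ahead. A match is a description of letters, not of binding.

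Across whole libraries, all 9 genes were highest in lymph node, and none of the 4 liver and spleen libraries reached a lymph node library. The chemokine receptor gene Ccr6 had 384 and 431 UMIs in lymph node, against 13 and 7 in liver and 12 and 4 in spleen. Its mean was 111.3 ± 10.7 CPM in lymph node, 2.12 ± 1.41 CPM in spleen and 1.501 ± 0.49 CPM in liver (SD, n = 2 each). Ccr6 was lower by 6.23 ± 0.24 on the log2 scale in liver (log2 fold change -6.23 ± 0.24 SE, edgeR adjusted p = 2.05e-20) and by 5.66 ± 0.25 in spleen (-5.66, edgeR adjusted p = 4.01e-18). The liver and spleen values of Ccr6 overlapped.

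The cytokine receptor chains had the same order of organs. Il23r had 110 and 180 UMIs in lymph node (29.7 and 49.7 CPM), 14 and 8 in spleen, 4 and 6 in liver. Il17re had 205 and 241 UMIs in lymph node, 24 and 25 in spleen, 22 and 16 in liver. For Il1r1 the numbers were lower, with 60 and 63 UMIs in lymph node, 9 and 3 in spleen, 5 and 6 in liver. No liver or spleen library came near a lymph node library in any of the 3. Against lymph node the log2 fold changes in liver were -5.71 for Il23r, -4.44 for Il17re and -4.34 for Il1r1, with SE of 0.35, 0.23 and 0.39. In spleen they were -3.71, -3.18 and -3.34, with SE of 0.32, 0.22 and 0.40. The edgeR adjusted p was at most 8.07e-08 for these 6 values.

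The kinase gene Blk had 358 and 318 UMIs in lymph node, 22 and 14 in spleen, 21 and 30 in liver. Sdc1 had 358 and 389 in lymph node, 23 and 17 in spleen, 18 and 10 in liver. The B cell and plasma cell genes given above, which mark other cells known to use Blk and Sdc1, summed in lymph node to 11.9 and 14.6 CPM and to 1.89 and 1.10 CPM. Blk itself stood at 96.7 and 87.7 CPM there and Sdc1 at 96.7 and 107.3 CPM. The part of such cells in the Blk and Sdc1 levels was not tested. The protease inhibitor Serpinb1a had 685 and 707 UMIs in lymph node, 90 and 64 in spleen, 81 and 80 in liver. Log2 fold changes against lymph node in liver and spleen were -4.61 and -4.23 for Blk, -5.62 and -4.22 for Sdc1 and -4.01 and -3.18 for Serpinb1a, with SE between 0.15 and 0.22.

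The pair Tmem176a and Tmem176b differed from the other 7 genes in liver. Tmem176a had 984 and 950 UMIs in lymph node, 139 and 90 in spleen, 653 and 722 in liver. Tmem176b had 863 and 845 in lymph node, 115 and 99 in spleen, 850 and 856 in liver. As a level, Tmem176b stood at 233.1 ± 0.015 CPM in lymph node, 28.8 ± 1.57 CPM in spleen, 131.0 ± 14.6 CPM in liver (SD, n = 2 each). The pair was thus at its lowest in spleen and in between in liver, with no overlap between organs for either gene. Log2 fold changes of liver over lymph node were -1.38 ± 0.13 SE for Tmem176a (edgeR adjusted p = 5.34e-09) and -0.89 ± 0.12 SE for Tmem176b (edgeR adjusted p = 2.18e-07). In spleen they were -3.08 ± 0.16 SE and -3.00 ± 0.14 SE.

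**Figure D1:**
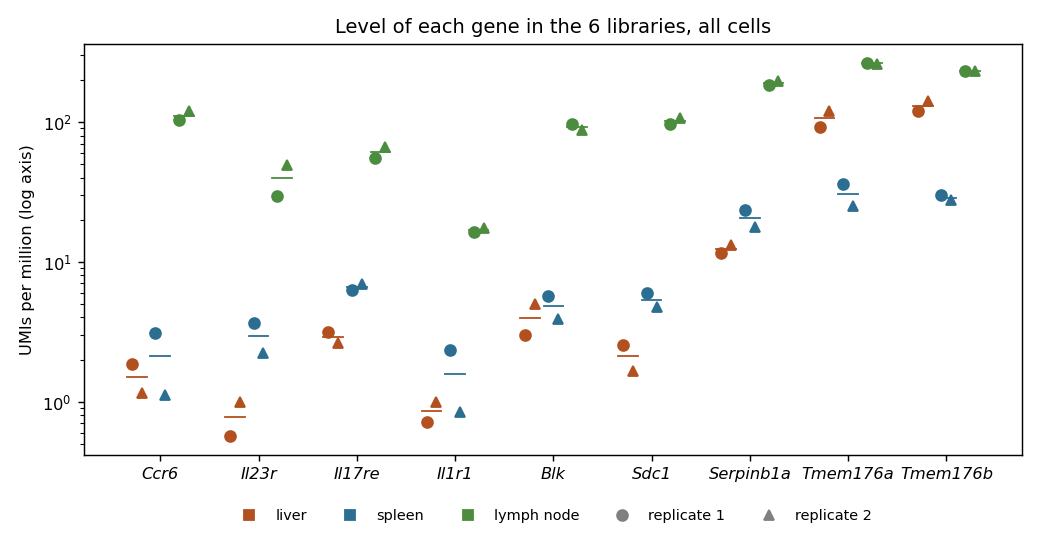
Level of each of the 9 genes in CPM on a log axis, for all cells of each of the 6 libraries. Colours mark the organs, symbols the 2 replicates and short lines the mean of 2. The green lymph node points are above all others for every gene, and Tmem176a and Tmem176b are the genes whose liver points rise well above spleen.

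Counted over the tests, 9 of the 9 genes were lower in liver than in lymph node at an edgeR adjusted p under 0.05, where 37.6% of the 10249 genes tested passed in either direction and 19.6% were lower. In spleen against lymph node, 9 of 9 were lower, beside 18.2% of genes passing in either direction and 10.3% lower. The median log2 fold change of the 9 genes was -4.44 in liver and -3.34 in spleen, and that of all genes was 0.01 and 0.00. Both contrasts use the same 2 lymph node libraries. Ccr6, Il23r and Il1r1 had few UMIs in liver and spleen and passed the filter on low counts through their lymph node level. These counts, and the fold changes and p of Ccr6, Il23r and Il1r1 over all cells, are therefore a description only. Without that filter, 9 of 9 were lower in each contrast.

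Between liver and spleen, 6 of the 9 genes passed, and they split in direction. Tmem176a and Tmem176b were higher in liver, by 1.71 ± 0.16 SE and 2.11 ± 0.14 SE on the log2 scale (edgeR adjusted p = 1.72e-08 and 7.72e-13). Il23r, Sdc1, Il17re and Serpinb1a were lower in liver, with log2 fold changes of -1.99, -1.40, -1.26 and -0.83 (edgeR adjusted p = 0.0095, 0.0031, 0.0036 and 0.0014). In this contrast 25.9% of all genes passed in either direction, 12.8% higher and 13.1% lower. Il1r1 (-0.995, 95% interval -2.26 to 0.27), Ccr6 (-0.57, -1.56 to 0.42) and Blk (-0.39, -1.06 to 0.29) did not pass. The UMIs behind the liver and spleen values of these 7 genes are few: without liver replicate 1 or without spleen replicate 1 the edgeR adjusted p of Il23r was 0.12, and without spleen replicate 1 that of Serpinb1a was 0.0505.

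The partner chains of the 3 cytokine receptors were followed in the same way. Against lymph node, Il17ra differed by -0.11 in liver and 0.06 in spleen, and Il1rap by -0.33 and -0.23, and neither passed. Il12rb1 was higher in liver than in lymph node by 0.54 ± 0.14 SE (edgeR adjusted p = 0.0029) and differed by 0.21 in spleen, which did not pass. Il12rb1 and Il17ra were seen in 13.1% and 14.3% of liver cells and in 5.19% and 9.02% of lymph node cells before thinning. After thinning the shares were 3.38% and 4.69% in liver and 2.94% and 5.60% in lymph node. Cells with both chains of a receptor were few at this depth. In the lymph node libraries 4 of 102 and 13 of 158 cells with Il23r also had Il12rb1, and 1 of 59 and 0 of 62 cells with Il1r1 had Il1rap. There 0 of 62 allows up to 4.84% of such cells to have a UMI of Il1rap, not to express it. Of lymph node cells with Il17re, 19 of 190 and 27 of 213 had Il17ra, which 9.82% and 8.22% of all cells held. In liver 7 of 21 and 2 of 15 cells with Il17re had Il17ra, beside 16.2% and 12.3% of all cells.

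A wider list of 37 genes tied to the type 17 programme, which holds the partner chains and the 8 anchor genes defined below, was also counted. In liver against lymph node, 24 of the 35 genes tested were lower, 5 higher and 6 did not pass, with a median of -1.87. In spleen against lymph node, 21 were lower, 1 higher and 13 did not pass, with a median of -1.27. In liver against spleen, 14 were lower, 6 higher and 15 did not pass, with a median of -0.42. Of all 10249 genes tested, 2007, 1059 and 1341 were lower in these contrasts (19.6%, 10.3% and 13.1%) and 1842, 810 and 1312 higher. Genes such as Il17a, Il17f and Il22 passed the filter on low counts through their lymph node level, so these counts are a description only. Cytokine genes were among the largest differences: Il17a had 31 and 13 UMIs in lymph node and 0 in the liver and spleen libraries, where a count of 0 allows up to 0.426 to 0.839 CPM. Il22 had 32 and 39 UMIs in lymph node, 1 and 0 in spleen and 0 in both liver libraries. Il17f had 10 and 21 UMIs in lymph node, 0 and 1 in spleen and 0 in both liver libraries. Kcnk1, a potassium channel gene, had 114 and 155 UMIs in lymph node, 10 and 6 in spleen and 4 and 2 in liver. Ccr8, a chemokine receptor gene, had 91 and 67 UMIs in lymph node, 0 and 2 in spleen and 8 and 3 in liver. In liver against spleen the largest were Sox13 (-3.19 ± 0.79 SE), Sox4 (-2.47 ± 0.39 SE), both transcription factor genes, and Kcnk1 (-2.25 ± 0.62 SE). Sox13 had 4 and 0 UMIs in liver and 5 and 16 in spleen, so its value rests on few UMIs.

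The next question was how the 9 genes were spread over single cells. Cells with UMIs of 3 or more of the 9 genes, called co-detecting cells here, numbered 485 and 515 in lymph node, 19 and 18 in spleen, 25 and 29 in liver. After thinning to 1000 UMIs, which left out 0 and 9 liver cells and 144 to 488 cells of the other libraries, they were 0.0714% and 0.140% of cells in liver. Spleen gave 0.155% and 0.241%, lymph node 8.18% and 10.5%. The means were 0.106 ± 0.049%, 0.198 ± 0.061% and 9.32 ± 1.62% (SD, n = 2). These thinned shares rest on 2 and 4 cells in liver and on 4 and 6 in spleen. The organs did not overlap, but the gap between liver and spleen is thus one of few cells. The exact permutation test of the F statistic gave p = 0.0667. That is the smallest value that 15 splits of 6 libraries allow, so this design cannot reach 0.05. Without thinning the means were 0.953%, 0.687% and 18.2%, so the order of liver and spleen turned with thinning. The limit of 3 genes cuts through a continuous range: 265 and 317 lymph node cells had 2 of the 9 genes, 194 and 255 had 3, and 14 in all had 7.

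In lymph node, most cells that held one of these genes held another. Of 296 and 338 cells with Ccr6, 94.6% and 87.9% had at least 1 of the other 8 genes, and 78.7% and 69.5% had at least 2. For the remaining genes the share with at least 1 other was 79.3% to 92.1% over both libraries, lowest for Tmem176a. Every one of the 36 pairs was found together in more lymph node cells than the product of the 2 shares gives. The median ratio of observed to expected cells was 2.38 and 2.31 in the 2 libraries, with ratios of 1.61 to 4.82 and 1.73 to 3.31. Ccr6 and Sdc1, for example, shared 99 cells against 32.4 expected and 102 against 37.3. Deeper cells show more of every gene, so part of such a ratio goes with depth: co-detecting cells had a median of 2106 and 1797 UMIs in lymph node and cells with none of the 9 genes 1514 and 1279. The share of a ratio that depth accounts for was not tested.

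Anchor-positive cells were picked by genes other than the 9, as cells with UMIs of at least 2 of 8 anchor genes, among them Pxdc1, Aqp3, Il17a, Il17f, Cd163l1, 5830411N06Rik and Actn2. They numbered 437 and 469 in lymph node, 22 and 22 in spleen, 29 and 34 in liver. After thinning they were 8.41 ± 1.65% of lymph node cells, 0.315 ± 0.047% of spleen cells and 0.141 ± 0.048% of liver cells (SD, n = 2, exact permutation p = 0.0667, the smallest possible). These thinned shares rest on 9 and 7 cells in spleen and on 3 and 5 in liver. In lymph node, 253 of the 437 and 249 of the 469 anchor-positive cells also held 3 or more of the 9 genes, and 46 and 33 held none. Within these cells the pairs stood close to the expectation, with a median ratio of 1.16 and 1.11 and 32 of 36 pairs above it in each library. In liver, 9 and 13 anchor-positive cells held 3 or more of the genes and 8 and 5 held none, and in spleen the numbers were 7 and 7 against 3 and 6.

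**Figure D2:**
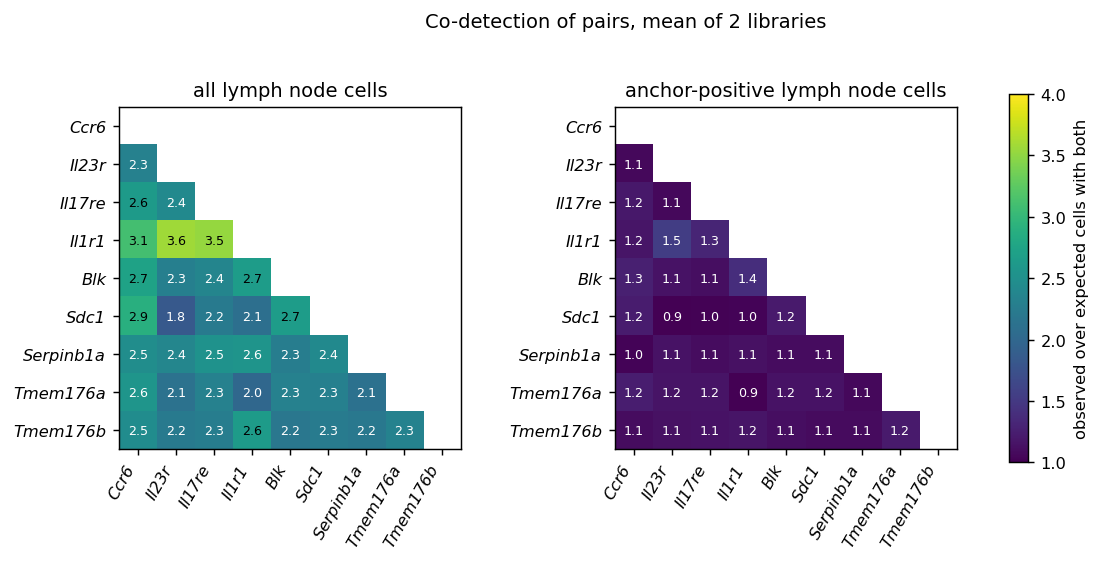
Observed over expected number of cells with UMIs of both genes, for each of the 36 pairs, as the mean of the 2 lymph node libraries. Left, all lymph node cells, where every pair is above 1, with medians of 2.38 and 2.31 in the 2 libraries; right, anchor-positive cells alone, where the medians are 1.16 and 1.11. The colour scale starts at 1, and lower ratios share its first colour.

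The level of the genes was then compared between organs in anchor-positive cells. These were picked by the same rule but differed between organs in depth and in type 1 genes, as given below. The filter on low counts was passed by 7 of the 9 genes and not by Il23r (5 UMIs in liver, 6 in spleen) and Il1r1 (5 and 3). Ccr6 and Sdc1 had as few UMIs in spleen and passed through their lymph node level. Counts of genes below lymph node, and the fold changes and p of Ccr6 and Sdc1, are therefore given as a description only. Ccr6 stood at 250.8 and 264.8 CPM in lymph node anchor-positive cells, 86.1 and 22.3 CPM in spleen (4 UMIs and 1 UMI) and 92.2 and 47.3 CPM in liver (10 and 5 UMIs). Its log2 fold change against lymph node was -1.87 ± 0.33 SE in liver (edgeR adjusted p = 2.1e-04) and -2.28 ± 0.50 SE in spleen (edgeR adjusted p = 0.0090). Over all cells the same contrasts gave -6.23 and -5.66. The spleen call of Ccr6 was lost without spleen replicate 2 (-1.67, edgeR adjusted p = 0.20) and with DESeq2 (adjusted p = 0.11), and its liver call without Actn2 in the anchor rule (-0.9998, edgeR adjusted p = 0.059).

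Sdc1 was at 101.5 and 9.46 CPM in liver, with 11 UMIs and 1 UMI, at 64.6 and 66.8 in spleen and at 194.1 and 242.8 in lymph node. It was lower in liver by 1.96 ± 0.42 on the log2 scale (-1.96, edgeR adjusted p = 0.0018), and without liver replicate 2 it no longer passed (-1.15, edgeR adjusted p = 0.075). Serpinb1a was lower in liver (-1.24 ± 0.28 SE, edgeR adjusted p = 0.0035), with 212.1 and 160.9 CPM against 454.3 and 430.7, while spleen stood at 624.4 and 155.8, and it no longer passed with DESeq2 (adjusted p = 0.062) or without Actn2 in the rule (-0.79, edgeR adjusted p = 0.19). Tmem176a was lower in liver (-0.64 ± 0.19 SE, edgeR adjusted p = 0.022), a call that was lost when either library of liver or of lymph node was left out (edgeR adjusted p = 0.055 to 0.21). In spleen, Tmem176b was lower at 129.2 and 244.9 CPM against 536.6 and 489.7 (-1.51 ± 0.32 SE, edgeR adjusted p = 0.0074), and without spleen replicate 1 it no longer passed (-1.12, edgeR adjusted p = 0.19).

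Of the 7 genes tested, 4 were lower in liver anchor-positive cells than in lymph node, beside 15.9% of 2358 genes in either direction and 7.72% lower. In spleen 2 of 7 were lower, beside 2.25% in either direction and 1.4% lower. Between liver and spleen 0 of 7 passed, beside 1.48% of genes, by edgeR and by DESeq2, with 2 of 7 (Tmem176b and Serpinb1a) at an unadjusted edgeR p under 0.05. Without spleen replicate 2, Serpinb1a passed (-1.68, edgeR adjusted p = 0.012). Blk and Il17re passed in no contrast here: their log2 fold changes against lymph node were -0.55 and -0.76 in liver (95% intervals -1.09 to -0.01 and -1.41 to -0.10) and -0.24 and -0.58 in spleen (-0.94 to 0.47 and -1.47 to 0.32). The wider list gave 18 genes tested, of which 7 were lower and 1 higher in liver against lymph node and, by edgeR, 0 in either direction in spleen against lymph node, with 7 of the 18 at an unadjusted p under 0.05. Furin, a protease, was among the largest in liver (-1.60 ± 0.43 SE), with the anchors 5830411N06Rik, Actn2 and Pxdc1, whose level the choice of cells itself affects. The 2 called in liver against spleen were Ly6a (1.23 ± 0.28 SE), a surface protein gene, and Ramp1 (-0.85 ± 0.22 SE), a co-receptor for calcitonin gene-related peptide.

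The cells passing the anchor rule were not alike in the 3 organs in other genes. In liver, 26 of 29 and 29 of 34 also held 3 or more of 10 type 1 genes (Tbx21, Il2rb, Nkg7, Klrb1c, Klrd1, Klrk1, Cxcr3, Xcl1, Ifng and Ccl5). In spleen this was 8 of 22 and 12 of 22, and in lymph node 30 of 437 and 22 of 469. Of the type 1 genes tested within anchor-positive cells, 7 of 8 were higher in liver than in lymph node. The median depth of anchor-positive cells was 4695 and 3806.5 UMIs in liver and 2145 and 1833 in lymph node. The part of these type 1 transcripts and of depth in the lower levels of Ccr6, Sdc1, Serpinb1a and Tmem176a was not tested.

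**Figure D3:**
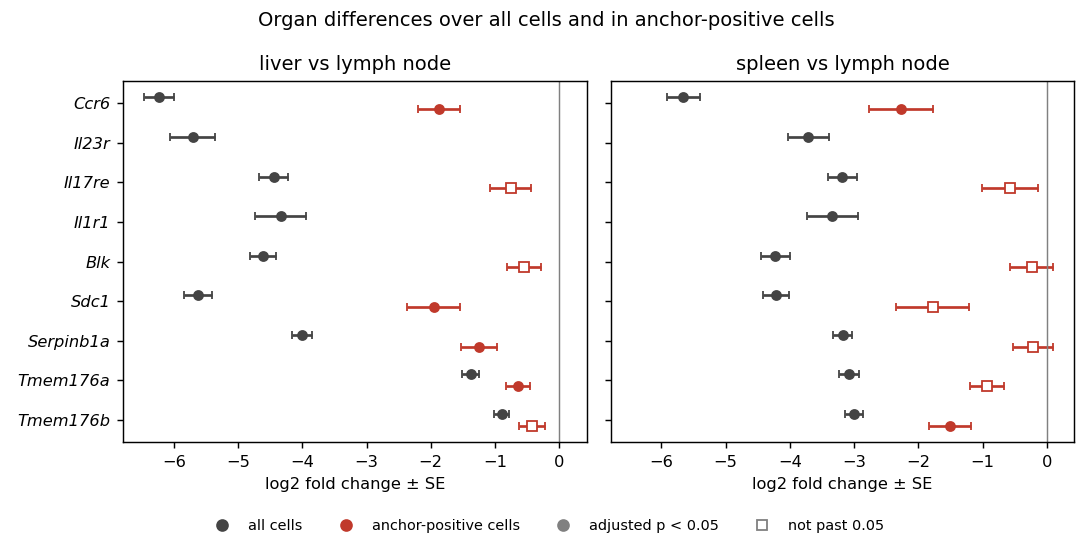
Log2 fold change with SE of each gene in liver and in spleen against lymph node, over all cells (grey, 9 genes) and in anchor-positive cells (red, 7 genes). Filled circles passed an edgeR adjusted p of 0.05 and open squares did not. The red points sit between -2.28 and -0.22, and for every gene drawn the red point is closer to 0 than the grey one.

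In liver, most cells with the Tmem176 pair held none of the other 7 genes, but most liver cells held none of them either. Before thinning, 781 and 817 cells of the liver libraries (27.9% and 28.6%) held UMIs of Tmem176a or Tmem176b. Of these cells, 94.5% and 94.1% held none of the other 7 genes. In spleen 180 and 144 cells (6.60% and 5.42%) held either, 83.9% and 84.7% of them without the other 7. In lymph node 885 and 918 cells (33.5% and 32.2%) held either, and 33.6% and 30.2% of them lacked the other 7. These shares go with how scarce the 7 genes were in each organ. Cells with any of the 7 made up 3.07% and 3.36% of all liver cells. For spleen this was 4.07% and 3.24%, for lymph node 35.0% and 36.7%. A lack of the 7 genes was therefore not particular to liver cells with the pair. Of the cells with any of the other 7 genes, 50% in both liver libraries, 26.1% and 25.6% of the spleen ones and 63.7% and 61.4% of the lymph node ones held Tmem176a or Tmem176b.

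The pair itself was found together in every organ. Tmem176a and Tmem176b shared 220 liver cells against 88.6 expected in replicate 1 and 239 against 97.2 in replicate 2. In spleen they shared 21 against 3.68 and 21 against 2.56, and in lymph node 324 against 138.3 and 302 against 130.4. Of the liver cells with Tmem176a, 48.6% and 47.5% also held Tmem176b.

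**Figure D4:**
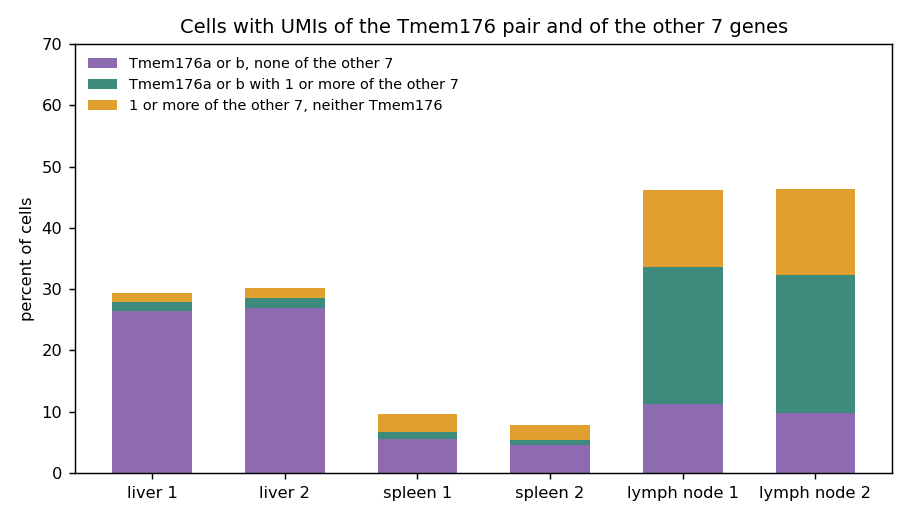
Percent of all cells of each library that held UMIs of Tmem176a or Tmem176b alone of the 9 genes (purple), of that pair with 1 or more of the other 7 genes (green), or of the other 7 without the pair (orange). Purple fills 26.3% and 26.9% of liver cells, 5.53% and 4.595% of spleen cells and 11.3% and 9.73% of lymph node cells.

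The type 1 gate was defined as cells with 3 or more of the 10 type 1 genes and no anchor gene. In liver most UMIs of the pair came from this gate, but so did most UMIs of all genes. These were 6025754 of 7041459 and 5246456 of 6055174, so the pair's share there goes with the size of the gate. This gate held 86.2 ± 0.17% of liver cells, 70.4 ± 1.73% of spleen cells and 21.7 ± 2.39% of lymph node cells (SD, n = 2). It held 80.2% and 80.3% of all liver UMIs of Tmem176a and 84.6% and 81.5% of those of Tmem176b, but 6.10% and 4.53% and 3.94% and 3.91% of those in lymph node. Within the gate Tmem176b stood at 45.5 and 49.0 CPM in lymph node, 24.6 and 22.7 CPM in spleen, 119.3 and 133.0 CPM in liver. Tmem176a stood at 80.3 and 63.8 CPM in lymph node, 29.9 and 20.3 CPM in spleen, 87.0 and 110.6 CPM in liver. The liver libraries were thus the highest for both genes in the gate. The shares of gate cells with a UMI of Tmem176b were 19.1% for liver, 2.87% for spleen and 5.14% for lymph node, and after thinning 7.70%, 2.01% and 4.25%.

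Tested over the 6 libraries within the type 1 gate, a comparison chosen after seeing the data, Tmem176b was higher in liver than in spleen by 2.32 ± 0.17 SE and Tmem176a by 1.88 ± 0.18 SE (edgeR adjusted p = 4.09e-13 and 1.60e-09). These were the 2 of 7 genes that passed in that contrast, where 9.26% of 9676 genes were higher. Ccr6 and Il1r1 were too low to be tested. Against lymph node the direction of the pair in liver turned: Tmem176b was higher by 1.32 ± 0.19 SE (edgeR adjusted p = 2.93e-06) and Tmem176a differed by 0.34 ± 0.20 SE, which did not pass. There 6.95% of genes were higher. Over all cells, by contrast, both were lower in liver than in lymph node.

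The other genes were near the limit of counting in the type 1 gate. Over both liver libraries, 4883 gate cells held 2 UMIs of Ccr6, 2 of Il23r, 2 of Il1r1, 13 of Il17re, 9 of Blk, 7 of Sdc1 and 90 of Serpinb1a. Over both spleen libraries, 3790 gate cells held 0 UMIs of Ccr6, which allows up to 0.0792% of these cells to have a UMI of it, not to express it, and 40 of Serpinb1a. Over both lymph node libraries, 1189 gate cells held 12 UMIs of Ccr6, 21 of Blk and 38 of Serpinb1a, so the gate of that organ had more of them per cell. Within the gate 5 of the 7 genes tested were lower in liver than in lymph node (Il23r, Il17re, Blk, Sdc1 and Serpinb1a), beside 9.42% of genes, and 6 of 7 were lower in spleen, beside 3.71%. These counts too cover genes that passed the filter with few liver and spleen UMIs and are a description only. In a droplet assay, free RNA gives low shares of this kind, and the source of these UMIs was not tested. The gate's 10 type 1 genes do not include any of the 9 genes.

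Finally, the co-detecting cells were set against cells with none of the 9 genes within each library, and only other genes were read, since the 9 genes chose the classes. Of 8050 other genes, 984 (12.2%) differed at an edgeR adjusted p under 0.05, 414 (5.14%) higher and 570 (7.08%) lower in co-detecting cells. The liver and spleen sums of this class hold 18 to 29 cells and the lymph node sums 485 and 515, so lymph node weighs most. Without lymph node replicate 1 there were 548 genes and without replicate 2 there were 511. Co-detecting cells were also deeper in every library, by the medians given above for lymph node.

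The genes that were most raised with the 9, by log2 fold change and in all 6 libraries, had roles of several kinds. Ltb4r1, the receptor of leukotriene B4, was higher by 3.35 ± 0.20 SE, with 173.4 ± 65.3 CPM in co-detecting and 12.6 ± 6.73 CPM in member-free cells (SD, n = 6 libraries). Cysltr1, the receptor of cysteinyl leukotrienes, was higher by 2.94 ± 0.22 SE. The first of the list was Fam83a (4.37 ± 0.69 SE), at 174.9 ± 51.9 against 7.29 ± 9.74 CPM. Lingo4 (3.98), Cnn3 (3.97), which encodes an actin-binding calponin, Pxdc1 (3.71), Actn2 (2.94), an actin crosslinker, Clstn3 (2.90) and Avpi1 (2.87) were the others given here. The edgeR adjusted p of these genes was at most 0.016, and 2 of them missed the threshold in an alternative, Actn2 with 2 genes as the limit (2.27, edgeR adjusted p = 0.052) and Clstn3 in thinned lymph node cells (1.68, edgeR adjusted p = 0.059). Pxdc1 and Actn2 are anchor genes and thus part of the wider list.

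The 10 genes most lowered, again in all 6 libraries, were led by an NK receptor gene. In spleen their co-detecting values were 0, 30.1 or 32.5 CPM, in sums of 33256 and 30806 UMIs. The spleen direction of these genes thus rests on counts near the floor. Klrc2 was lower by 4.03 ± 0.39 (log2 fold change -4.03), at 7.58 ± 12.5 against 91.2 ± 49.9 CPM, as was Klrc1 (-3.096 ± 0.24 SE). Both encode NKG2 receptors. Xcl1, a chemokine of type 1 cells, was lower (-3.06 ± 0.18 SE) at 56.1 ± 45.9 against 325.0 ± 52.0 CPM. Izumo1r (-3.24), a folate receptor family gene, Pglyrp1 (-3.03), Ly6c1 (-2.96), Gpr174 (-2.86), a receptor for lysophosphatidylserine, Samd3 (-3.70), Ifitm10 (-2.82) and Inpp4b (-2.61), a lipid phosphatase, were the others. The edgeR adjusted p of the 10 was at most 2.80e-16. All 10 calls were lost when cells with 2 or more of the 9 genes were taken in place of 3 or more, with log2 fold changes of -1.75 (Izumo1r) to -0.99 (Klrc2) and edgeR adjusted p of 0.090 (Ifitm10) to 0.53 (Klrc2). That wider class held 250 and 270 liver cells, of which 220 and 239 had both Tmem176a and Tmem176b.

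By list, 5 of the 5 anchor genes tested and 18 of the 27 genes tested from the wider list were higher in co-detecting cells, and 2 of the 27 were lower, with a median of 1.20 beside -0.04 for all genes. Kcnk1 (4.08 ± 0.29 SE) and Igf1r (3.74 ± 0.28 SE), the receptor of IGF-1, each higher in 5 of 6 libraries, led the wider list. Il7r, the IL-7 receptor chain, stood at 1278 ± 487 against 514.6 ± 222.7 CPM (1.20 ± 0.12 SE), and Il18r1 was higher by 1.24 ± 0.13 SE. The 10 type 1 genes were lower, 10 of 10, with a median of -2.13, though Klrk1 and Ifng in 5 of 6 libraries only. But with 2 genes as the limit edgeR called 0 of 10, 4 at an unadjusted p under 0.05, with a median of -1.10. Of the wider list, 10 of 25 genes were then higher (median 0.72). Liver co-detecting cells did not lack type 1 genes: 23 of 25 and 22 of 29 held 3 or more of the 10. In spleen this was 6 of 19 and 7 of 18, and in lymph node 33 of 485 and 20 of 515. Ccl5 stood at 810.5 ± 569.6 CPM in co-detecting and 3713 ± 2023 CPM in member-free cells (-2.53 ± 0.12 SE), and Tbx21, the gene of T-bet, was lower by 2.23 ± 0.29 (-2.23). The partner chains Il12rb1 (0.29 ± 0.22 SE) and Il17ra (0.15 ± 0.18 SE) did not pass. Both lists were chosen with earlier results of these libraries known, so their counts are not independent evidence of a direction.

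**Figure D5:**
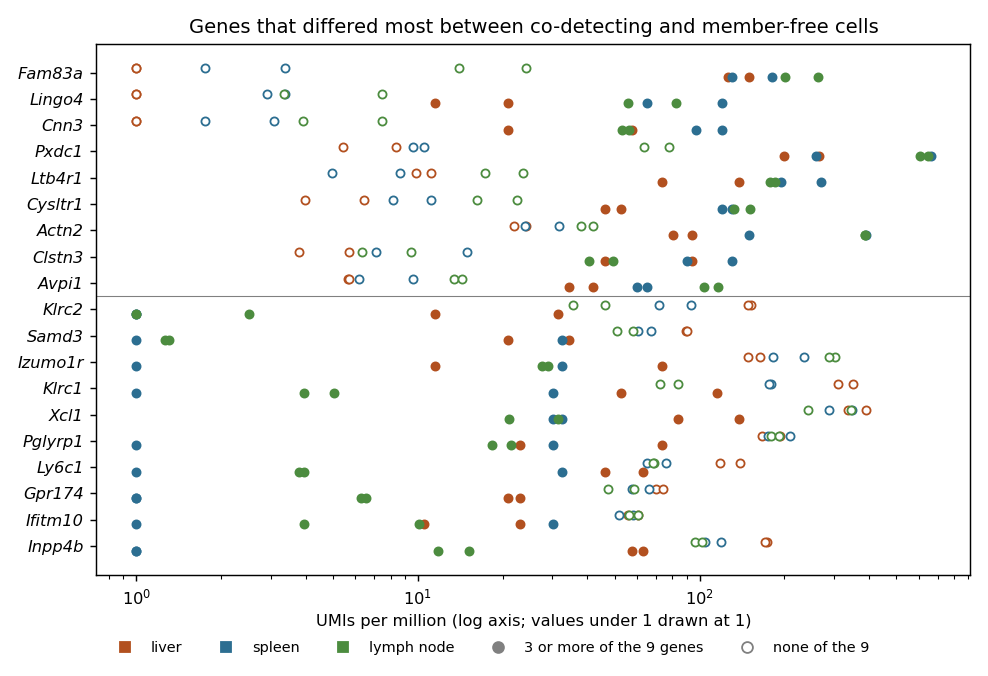
Level of 9 of the genes most raised and of the 10 most lowered in cells with 3 or more of the 9 genes (filled) against cells with none (open), in CPM on a log axis. There are 6 points of each kind per gene, 1 per library, coloured by organ, and values under 1 are drawn at 1. In every row the filled point of a library lies on the same side of its open point, as the naming rule required.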

How the data were processed

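Droplet libraries (10x Genomics 3′, v2 chemistry) were made from sorted iNKT cells of 3 organs, 2 biological repeats each. The labels name the molecule as nuclear RNA, while the protocol sorts whole cells. Per the labels and the study's methods, the authors aligned reads to mm10 and counted UMIs with Cell Ranger 3.1.0, and they deposited raw counts per gene and cell with lists of genes and barcodes. Of these, cells with 300 to 4000 genes and at most 15% mitochondrial UMIs were kept. Ribosomal, ribosomal RNA and haemoglobin genes (112) were left out of library sizes, and 3577766 to 7041459 UMIs per library remained.

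UMIs were summed per library, and over all cells or a cell class, with at least 10 cells per sum, and tested with edgeR 4.0.16 (filterByExpr, TMM, quasi-likelihood F test, Benjamini-Hochberg adjustment, threshold 0.05) in R 4.3.3. DESeq2 1.42.0 was the alternative. Organs were contrasted with all 6 libraries in 1 fit, and classes with the library as a block. The 9 genes were left out of the counts of genes that differed between classes. Shares of cells were compared after thinning with an exact permutation test over 15 splits. The 95% intervals of fold changes come from the quasi-likelihood fit and include the spread between libraries. Floors cover counting error only.

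The genes named were the 9, the partner chains, the Serpinb1a paralogs, the 4 largest called differences of the wider list per contrast, and the 10 largest of each sign between classes with an adjusted p under 0.05, 1 direction in all libraries and at least 50 CPM in the higher class. Il7r, Il18r1, Ccl5 and Tbx21 fall outside this rule and were chosen after their values were seen. The 9 genes, the lists and the tests were chosen with earlier results of these data known. 1 gene of the anchor rule and the naming rule, and an alternative that rests on it, are not reported here. No doublet caller was run: the 2% of cells with most UMIs in each library were left out as an alternative. Pairs of libraries shared 6 to 20 barcode sequences. Gene positions came from GENCODE vM21 and upstream sequence from RefSeq.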

Additional observations from a re-analysis of the deposited data

How the results depend on the processing

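Over all cells, the members called against lymph node were 9 of 9 with every alternative on the same cells, and 6 of 7 tested within the type 1 gate. In liver against spleen the 6 calls became 4 to 6 when 1 library was left out and 2 within the type 1 gate. Directions turned for Ccr6 in liver against spleen without spleen replicate 1 (-1.07 to 0.34 over single libraries left out), and within the gate for Blk in liver against spleen (0.33) and for Tmem176a (0.34) and Tmem176b (1.32) in liver against lymph node. The type 1 gate and the anchor rule without Actn2 were chosen after seeing the data. Anchor-positive sums of liver and spleen hold 22 to 34 cells. There the 4 calls of liver against lymph node became 2 with DESeq2, 1 without Actn2 in the rule and 6 of 9 tested without the filter on low counts, and 2 to 5 when a library was left out. The 2 calls of spleen against lymph node became 1 with DESeq2, 4 without the filter on low counts, and 1 to 4 when a library was left out. The 0 calls of liver against spleen became 1 without Actn2 (Tmem176b) and 0 to 1 when a library was left out (Serpinb1a without spleen replicate 2).

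In liver against spleen anchor-positive cells, signs turned for Ccr6 without the deepest cells (-0.021) and without liver replicate 1 (-0.13) or spleen replicate 2 (-0.24 to 1.66 over single libraries), for Serpinb1a without spleen replicate 1 (-1.68 to 0.29) and for Sdc1 without liver replicate 2 (-2.67 to 0.67). Without Actn2 they turned for Blk (0.89) and Sdc1 (0.30). Blk in liver against lymph node turned without Actn2 (0.27), and Serpinb1a in spleen against lymph node without spleen replicate 2 (-1.56 to 0.40). None of these turned values passed except Tmem176b within the gate. The cause was not tested.

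Thinned shares of co-detecting cells (0.106%, 0.198% and 9.32% in liver, spleen and lymph node) were 0.953%, 0.687% and 18.2% unthinned and 1.98%, 0.867% and 20.9% with 2 genes as the limit, and single libraries gave 0.0714 to 0.140%, 0.155 to 0.241% and 8.18 to 10.5%. Their exact permutation p was 0.0667 throughout. Anchor-positive shares were 1.11%, 0.817% and 16.5% unthinned. Without Actn2 in the rule they were 0.106%, 0.118% and 4.18%, and the exact permutation p was 0.2. There the liver libraries (0.107% and 0.105%) lay between the spleen libraries (0.155% and 0.0805%). With Actn2 kept, single thinned libraries gave 0.107 to 0.175%, 0.282 to 0.348% and 7.25 to 9.58%. The 984 genes that differed between classes became 467 with DESeq2, 435 with 2 genes as the limit, where 247 were higher and 188 lower and none of the 10 lowered genes named above passed, 657 in thinned lymph node cells alone, and 511 to 1118 when a library was left out.

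Replicate numbers are shared by the organs, but no label says that a number marks a shared animal or day. Differences between replicates 1 and 2 correlated at 0.190 for liver and spleen, 0.109 for liver and lymph node and 0.137 for spleen and lymph node. With a replicate block the members called were 6, 9 and 9 over all cells and 0, 4 and 2 in anchor-positive cells, as without it, and 3068, 4173 and 2141 genes were called over all cells. Over all cells edgeR called 2653 genes in liver against spleen, 3849 in liver against lymph node and 1869 in spleen against lymph node, and DESeq2 1452, 2574 and 1139. The first fell to 1386 without liver replicate 1 and 1389 without spleen replicate 2, and the others to 2400 and 1015 without lymph node replicate 2 and to 1583 and 519 within the type 1 gate. In anchor-positive cells the 35 genes of liver against spleen became 60 with ribosomal genes kept and up to 63 without a lymph node library. The 376 of liver against lymph node became 167 with DESeq2, 225 without Actn2 and as few as 215 without 1 library, and the 53 of spleen against lymph node became 32 with DESeq2 and 117 without the filter on low counts. The limits of 3 anchor genes and of 1000 UMIs could not be run for organ differences in anchor-positive cells, since liver and spleen sums fell below 10 cells.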
